A study of Caenorhabditis elegans with 2 samples.

Results

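The COPI coatomer of Caenorhabditis elegans is encoded by 7 genes, copa-1, copb-1, copb-2, copd-1, cope-1, copg-1 and copz-1, and these were followed through the region lists of a ChIP-seq experiment on the transcription factor LET-607. They were taken by name, 7 of 19973 annotated protein-coding genes, and not by a measured value, but with earlier results of these data known. The experiment holds 2 biological replicates of 1 group. Both came from strain YL651, which carries the allele let-607(tm1423), the allele unc-119(ed3) and the insertion vrIs121, a LET-607 fosmid with unc-119(+) whose LET-607 has a C-terminal GFP-FLAG tag. Mixed-sex young adults were collected at 49.5 hours after synchronization by L1 starvation, chromatin was sonicated to 200 to 800 bp, and an antibody to GFP was used. The extent of the fosmid is not given, untagged worms and the control library were not analysed here, and whole animals were used, so the signal is an average over tissues. Nothing was compared between conditions, since there is a single group.

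COPI is the protein coat of vesicles that bud from the Golgi and carry escaped residents and cargo receptors back to the endoplasmic reticulum (ER). In yeast and mammals its 7 subunits are recruited together to the membrane by the small GTPase ARF1, and an adaptor-like subcomplex of 4 subunits (beta, gamma, delta and zeta) joins an outer subcomplex of 3 (alpha, beta' and epsilon). LET-607 is a basic leucine zipper factor related to the mammalian CREB3 family, members of which are known to drive genes of the secretory pathway.

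Each region in the lists has a summit and a deposited signal value, which is the authors' peak caller's own score. The lists are 1488 thresholded regions that passed the authors' irreproducible discovery rate step, 30000 pooled candidates from both replicates, 30000 candidates of replicate 1 and 26493 of replicate 2. The 1488 thresholded regions are the strongest 1488 of the pooled list, with a signal from 111 to 6859. A gene is called bound here when a thresholded summit lies from 1000 bp upstream to 200 bp downstream of one of its annotated starts. Positions are 1-based on ce11, and read depth is unknown.

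The 5 sequences below are bases around summits at or near COPI genes: the strongest regions of copb-2, copd-1, copg-1 and copz-1, and a region far upstream of copb-1. The window of copa-1, the strongest bound COPI gene, is not shown, and copz-1, which was not bound, is shown for its TGACGTGG match. Each runs 5′ to 3′ on the strand of its COPI gene. Capitals mark matches to the motifs TGACGTGG, TGACG, ACGT and ACGTGG on either strand, and the pair GTCTCG and, after a gap of 2 bases, ACGA.
copb-2, chrIV:9459369-9459469, plus strand: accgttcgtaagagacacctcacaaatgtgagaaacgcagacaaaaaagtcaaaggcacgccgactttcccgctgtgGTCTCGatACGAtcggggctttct
copd-1, chrIII:6625447-6625547, minus strand: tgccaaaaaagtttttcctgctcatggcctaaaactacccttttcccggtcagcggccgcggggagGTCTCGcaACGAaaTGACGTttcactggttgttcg
copg-1, chrIV:10151564-10151664, plus strand: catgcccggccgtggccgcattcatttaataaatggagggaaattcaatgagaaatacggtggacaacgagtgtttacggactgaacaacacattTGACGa
copz-1, chrII:10872785-10872878, plus strand, ending at the base before the annotated start: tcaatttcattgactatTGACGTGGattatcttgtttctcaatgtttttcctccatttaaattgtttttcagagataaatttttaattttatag
Region upstream of copb-1, chrII:3077080-3077180, plus strand: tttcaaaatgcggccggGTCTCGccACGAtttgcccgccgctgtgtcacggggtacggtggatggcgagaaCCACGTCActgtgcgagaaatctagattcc

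LET-607 was bound at 4 of the 7 COPI genes: copa-1, copb-2, copd-1 and copg-1. By the same rule 960 of 19973 protein-coding genes were bound, which is 4.81%. All 7 COPI genes had a pooled candidate in the window, as had 39.0% of protein-coding genes, and 12.3% of the genes with such a candidate were bound. The bound genes belonged to both subcomplexes, 2 of the 3 outer subunits and 2 of the 4 adaptor-like subunits. The median signal of the 4 bound COPI genes was 330.3, against 174 over all 960 bound genes, whose quartiles were 132 and 269. This difference was not tested, since the genes were picked with earlier results of these data known.

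Inside the promoter windows, the outer subunit genes copa-1 and copb-2 had the highest signals, although copb-2 and copd-1 did not differ beyond the replicate spread in the pooled list. Their products, alpha- and beta'-COP, bind the dilysine retrieval signals of cargo in yeast and mammals. The copa-1 region had a signal of 442 in the pooled list, 186 in replicate 1 and 249 in replicate 2. It ranked 117 of 30000 in the pooled list, 121 of 30000 in replicate 1 and 124 of 26493 in replicate 2, and copa-1 stood 120 among the 960 bound genes. Its summit was at the same base in all 3 lists, 223 bp upstream of the copa-1 start. The region, 206 bp wide, lies in the 464 bp between copa-1 and the divergent gene gst-43, which RefSeq annotates as a maleylacetoacetate isomerase, and the summit is 242 bp from the start of gst-43, so it counts for both genes. The data do not tell which of these starts the binding belongs to.

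The copb-2 region had a signal of 372 in the pooled list, 173 in replicate 1 and 202 in replicate 2, with ranks of 159, 140 and 176. Its pooled summit was 312 bp upstream of the start, and those of replicates 1 and 2 were at 284 and 285 bp. The region, IV 9459348 to 9459524, is intergenic for protein-coding genes, and the summit lies inside the annotated non-coding RNA gene F38E11.25. No other protein-coding gene had this summit in its window. A second pooled candidate at 111 bp upstream had a signal of 32.7 and rank 29772, near the bottom of the list.

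cope-1 was the weakest COPI gene. It encodes epsilon-COP, which in yeast and mammals stabilizes alpha-COP. Its candidate had a signal of 41.6 in the pooled list (rank 18226) and 29.2 in replicate 2 (rank 11307), and replicate 1 had none in the window. The summits were 1 bp upstream of the start in the pooled list and 4 bp downstream in replicate 2. The gene starts 59 bp after the end of exo-1, the exonuclease 1 gene, on the same strand. Only 28.0% of the 7783 genes with a pooled candidate had a weaker one.

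Among the adaptor-like subunits, copd-1 and copg-1 were bound. copd-1 encodes delta-COP, the relative of the medium chains of the clathrin adaptors. Its region at III 6625417 to 6625551 had a signal of 289 in the pooled list, 142 in replicate 1 and 152 in replicate 2, with ranks of 234, 206 and 250. The summit was 525 bp upstream of the start in the pooled list, 524 bp in replicate 1 and 498 bp in replicate 2. The nearest protein-coding gene upstream, pdfr-1, is 7864 bp away, so no other start shared the region.

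copg-1, the gene of gamma-COP, one of the subunits that contact ARF1 in yeast and mammals, was the weakest of the 4 bound genes. Its region at IV 10151412 to 10151815 had a signal of 190.1 in the pooled list, 109 in replicate 1 and 78.1 in replicate 2, with ranks of 510, 338 and 934. The summit was 333 bp upstream of the outermost of 4 annotated starts in the pooled list and in replicate 2, and 330 bp in replicate 1. In contrast to the other bound COPI genes, the signal was higher in replicate 1 than in replicate 2.

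copz-1 fell below the threshold. It encodes zeta-COP, the small chain. Its candidate had a signal of 88.7 in the pooled list, 46.6 in replicate 1 and 42.1 in replicate 2, with ranks of 2443, 2543 and 3919. The weakest thresholded region had 111. The pooled summit was 44 bp upstream of copz-1, in the 267 bp between it and the divergent gene cyn-4, a peptidyl-prolyl isomerase gene, whose start was 224 bp away. A weaker replicate 1 candidate at 120 bp downstream, with a signal of 22.8, also fell in the windows of cyn-4 and of the origin recognition complex gene orc-2.

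**Figure D1:**
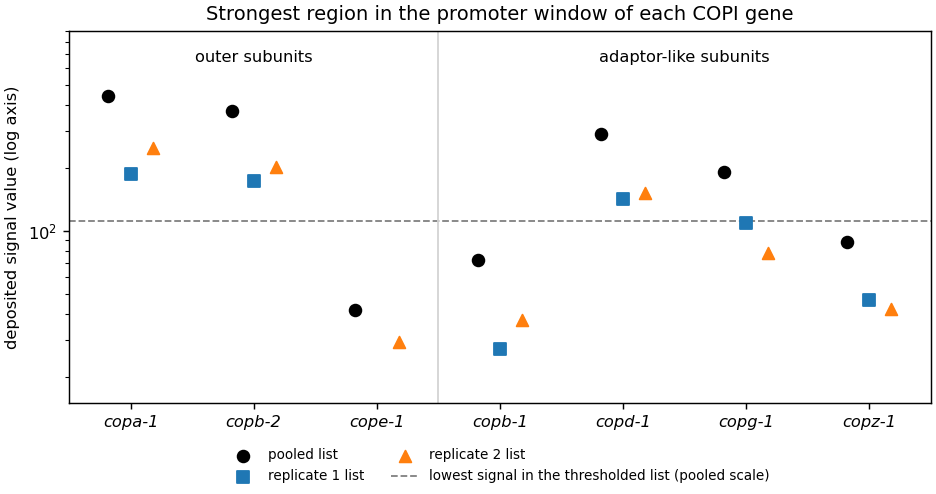
Deposited signal value (log axis) of the strongest region in the promoter window of each COPI gene in the pooled, replicate 1 and replicate 2 lists, 1 point per list, outer subunits on the left. The 4 bound genes lie between 190.1 and 442 in the pooled list, above the dashed line at 111, and copz-1, copb-1 and cope-1 lie below it.

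copb-1 was not bound by the window rule, but a strong region lay beyond the window. The gene encodes beta-COP, which with gamma-COP contacts ARF1. Inside its window the strongest candidate had a signal of 72.0 in the pooled list, 27.1 in replicate 1 and 37.5 in replicate 2, with ranks of 4117, 12603 and 5526, and its summit lay 156 bp downstream of the start in a coding exon. The thresholded region at II 3076977 to 3077280 had its summit 1666 bp upstream of copb-1. It had a signal of 877 in the pooled list, 430.3 in replicate 1 and 444 in replicate 2, and ranked 44, 38 and 52. These values are above those of every region inside a COPI promoter window.

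This region lies in the 1836 bp between copb-1 and the divergent gene Y25C1A.8, which RefSeq annotates as a zinc finger Ran-binding domain protein. The summit is 171 bp upstream of Y25C1A.8, and that was the one protein-coding gene with it in the window. With the window widened to 2000 bp upstream and 500 bp downstream, copb-1 became bound and the count was 5 of 7, beside 6.71% of protein-coding genes. With 500 bp upstream and 100 bp downstream, copd-1 dropped out and 3 of 7 were bound, beside 3.64%. The region was described after its values were seen, and the data do not assign it to either gene.

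**Figure D2:**
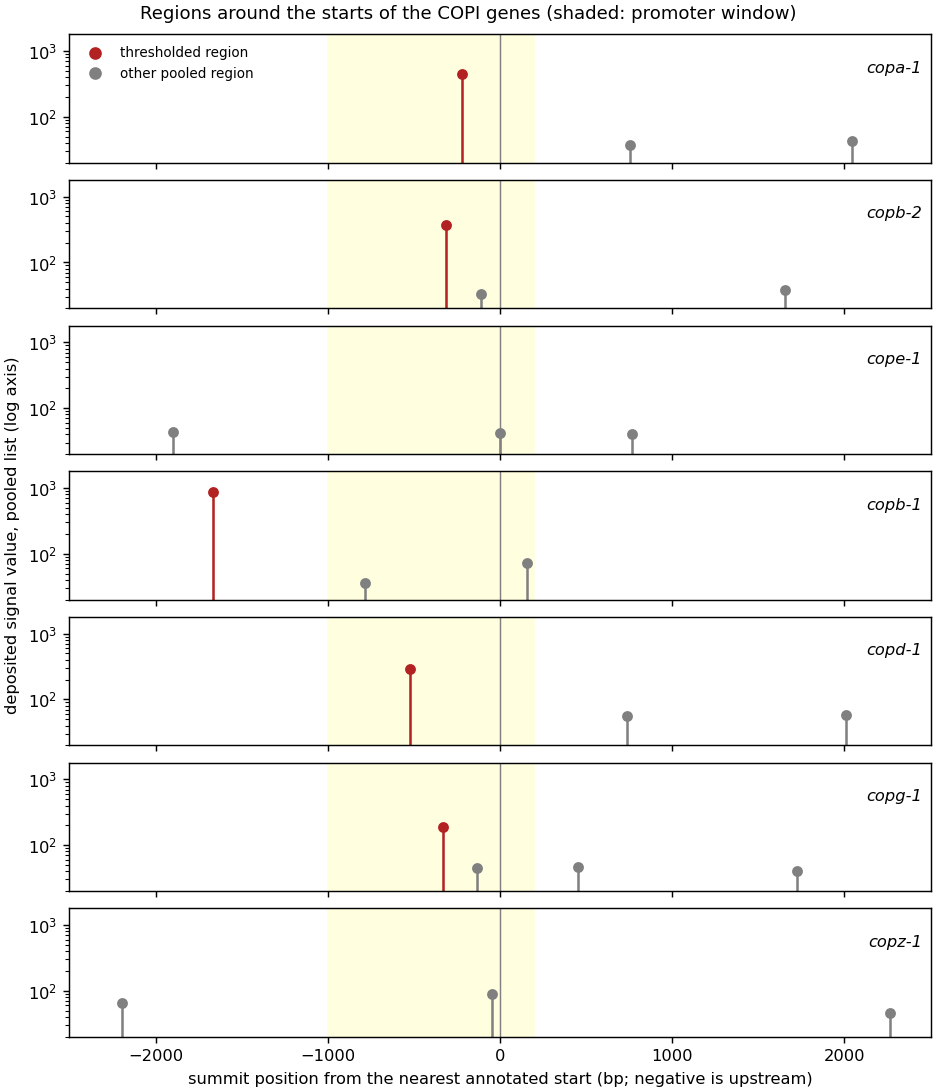
Summit position of every pooled region within 2500 bp of each COPI start (x axis, bp from the nearest annotated start, negative upstream) against its deposited signal value (log axis). Thresholded regions are red, other pooled regions grey, and the promoter window from 1000 bp upstream to 200 bp downstream is shaded. The copa-1, copb-2, copd-1 and copg-1 regions stand 223 to 525 bp upstream, and that of copb-1 at 1666 bp upstream, outside the shading.

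The summits of the 4 bound COPI genes were all upstream of the start, at a median of 322.5 bp. Over all 960 bound genes, 92.3% of the strongest summits were upstream, and the median position was 268 bp upstream. The copa-1, copb-2 and copd-1 regions were 206, 177 and 135 bp wide, and that upstream of copb-1 304 bp. The copg-1 region had the width of 404 bp that 82.1% of the thresholded regions share, while 15.9% of the thresholded regions were narrower than that.

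The order of the COPI genes was the same in both replicates as far as they had a candidate: copa-1, copb-2, copd-1, copg-1, copz-1, copb-1, with cope-1 last in replicate 2. Over the 1479 thresholded regions found in both replicates the signal scattered by 0.37 on the log2 scale (SD per replicate). That spread served as a rough yardstick and not as a test. A step between genes within a replicate holds the scatter of both genes, so it varies by more than that. In the pooled list copa-1 and copb-2 did not differ beyond that spread (log2 step 0.25). Nor did copb-2 and copd-1 (0.36, with 0.42 in replicate 2) or copz-1 and copb-1 (0.30, with 0.78 in replicate 1). The steps of 0.60 between copd-1 and copg-1 and 0.79 between copb-1 and cope-1 were larger than the spread, the second with 0.36 in replicate 2. From copg-1 to copz-1 the step was 1.23 in replicate 1 and 0.89 in replicate 2. The step between copd-1 and copg-1 was 0.37 in replicate 1 and 0.96 in replicate 2, so its size rests mostly on replicate 2. The spread was measured on thresholded regions and may not hold for the weaker candidates.

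In each bound COPI region the replicate difference lay inside the range that held 90% of the thresholded regions, with copg-1 toward its upper end. The log2 signal of replicate 1 minus replicate 2 had a median of -0.27 over the 1479 regions, with 90% of them between -1.08 and 0.63. It was -0.42 for copa-1, -0.23 for copb-2, -0.10 for copd-1 and -0.04 for the region upstream of copb-1. For copg-1 it was 0.48, higher than in 90.9% of the regions. The 1488 strongest regions of replicate 2 alone gave the same 4 bound COPI genes, beside 4.83% of protein-coding genes. Those of replicate 1 alone gave them too, beside 4.71%. Both outcomes follow from the ranks above: in each replicate the bound COPI genes ranked 934 or better and the others 2543 or worse. The thresholded list itself drew on both replicates, so neither outcome is an independent check. A candidate of any strength was present for 6 of 7 COPI genes in replicate 1, beside 38.2% of protein-coding genes, and for 7 of 7 in replicate 2, beside 36.5%.

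**Figure D3:**
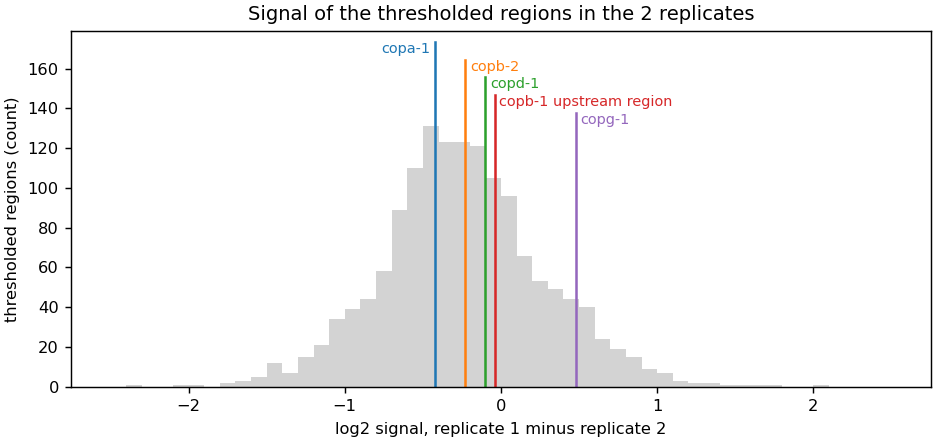
Histogram of the log2 signal in replicate 1 minus replicate 2 for the 1479 thresholded regions found in both (grey; y axis, number of regions), with a vertical line for each COPI region. copa-1, copb-2, copd-1 and the region upstream of copb-1 lie between -0.42 and -0.04, near the middle, and copg-1 lies at 0.48 on the right side.

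The windows from 50 bp before to 50 bp after the summits differed in sequence among the COPI genes. The element TGACGTGG, the kind that unfolded protein response factors are known to bind, was present in the windows of copz-1 and cope-1, which were not bound, and in that upstream of copb-1, shown above as CCACGTCA since it stands on the other strand. It was absent from the windows of the 4 bound genes. It was found in 1.88% of the 1488 thresholded windows and in 0.558% of the 28512 windows of the other pooled regions. In copz-1 it stood at II 10872802 to 10872809, 30 bp from the summit. In cope-1 it stood at III 13426269 to 13426276, just inside the transcribed region, 10 bp from the summit. Upstream of copb-1 it stood at II 3077151 to 3077158, 24 bp from the summit.

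Shorter pieces of this element occurred both at bound COPI genes and at those that were not bound. The TGACGTGG matches of copz-1 and cope-1, which were not bound, also hold TGACG, ACGT and ACGTGG, as does the match upstream of copb-1. The windows listed next held shorter pieces without the full element. TGACG, which is part of TGACGTGG, was in the windows of copd-1 and copg-1 among the bound genes, at the copb-1 candidate, and in 21.8% of thresholded and 13.7% of other pooled windows. ACGT was in those of copa-1, copd-1 and the copb-1 candidate (34.1% of thresholded and 22.7% of other pooled windows). The copa-1 window also held ACGTGG (11.7% of thresholded and 4.64% of other pooled windows), 20 bp from its summit. TGACGTGT, TGACGTCA, CACGTG, AGACGCAG and TGATAA were also searched on both strands, and their letters were in none of these windows. Each match is a description of letters and does not show a bound site.

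A second sequence was shared by 3 of the regions. GTCTCG followed after 2 bases by ACGA was in the windows of copb-2, copd-1 and the region upstream of copb-1, at 32, 22 and 28 bp from the summit. Over all windows it was in 17 of the 1488 thresholded regions (1.14%) and in 105 of the 28512 others (0.368%). GTCTCG alone was in 9.27% and 3.82%. This pair of words and ACGTGG were picked after the sequences of the COPI windows had been read, so their presence there is a description without a test. GC content was higher in the windows of the bound genes, with 52.5% for copd-1, 50.5% for copb-2, 46.5% for copa-1 and 45.5% for copg-1, than in those of the others, with 43.6% for the copb-1 candidate, 38.6% for cope-1 and 23.8% for copz-1. The region upstream of copb-1 had 58.4%. The median was 46.5% over the thresholded and 40.6% over the other pooled windows, and the part of GC content in the result was not tested.

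Genes that work with the coat were bound to a varying extent. Each count below is over the annotated genes of a list and stands against 4.81% of all protein-coding genes. A pooled candidate was present for 3 of 4 ARF cycle regulators, 8 of 10 receptors and p24 proteins, and 6 of 8 tethers and SNAREs. Of all protein-coding genes with a pooled candidate, 12.3% were bound. In a list of regulators of the ARF GTPase cycle, 3 of 4 annotated genes were bound: F07F6.4 at 356 and K02B12.7 at 159.6, which encode ARF GTPase-activating proteins, and gbf-1, the gene of the ARF exchange factor at the Golgi, at 147. The pooled gbf-1 summit was 998 bp upstream, at the edge of the window. The strongest candidate in the gbf-1 window had 24.5 in replicate 1 and 75.4 in replicate 2. Each list was searched on its own, so these may be other regions than the pooled one. Among retrieval receptors and p24 cargo proteins, which COPI vesicles carry back, 4 of 10 were bound. These were erd-2.1, which encodes a KDEL-type receptor, with 724, the p24 genes tmed-3 at 488 and tmed-10 at 429, and rer-1, a retrieval receptor of membrane proteins, at 113. tmed-3 lies 10344 bp from let-607, the gene carried on the fosmid, whereas copa-1, the one COPI gene on the same chromosome, lies 3.67 Mb away. Worms with the fosmid may hold extra copies of genes close to let-607, and the part of this in the tmed-3 signal was not tested. Of the tethers and SNAREs that receive COPI vesicles at the ER, 2 of 8 were bound, the SNARE genes sec-22 at 163 and syx-18 at 138.

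Other coats gave a range around these values. The COPII coat, which buds from the ER in the forward direction, had 6 of 9 genes bound with a median signal of 673, led by values of 1225 for sec-24.1, 1071 for sar-1, 919 for sec-23 and 427 for tfg-1, beside the 4.81% of all protein-coding genes bound. Of clathrin and its adaptor complexes, relatives of the adaptor-like COPI subunits, 2 of 14 were bound, the clathrin light and heavy chain genes clic-1 at 235.3 and chc-1 at 143, and none of the 12 adaptor subunit genes, beside the same 4.81%. The highest signal of a COPI promoter window, 442, was below that of 3 COPII genes and above that of both clathrin genes. A pooled candidate was present for 8 of 9 COPII genes and for 10 of 14 clathrin and adaptor genes. Of all protein-coding genes with one, 12.3% were bound. These lists differ in size and were not tested against each other.

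**Figure D4:**
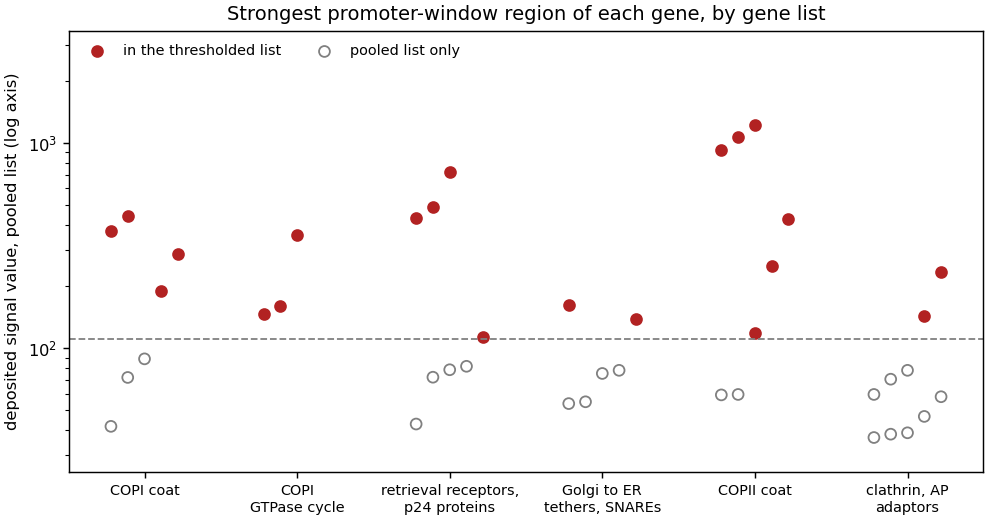
Deposited signal value in the pooled list (log axis) of the strongest promoter-window region of each gene with one, by gene list, COPI on the left. Filled red points are genes in the thresholded list, open grey points genes with a pooled candidate alone, and the dashed line is the weakest thresholded region at 111. The 4 bound COPI genes reach 442, against 1225 for the COPII coat and 235.3 for clathrin.

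The gene closest to the bound COPI genes in its level over both replicates was lin-9, a gene of the DREAM complex. Likeness was measured as the distance in log2 signal from the median of the 4 bound genes, which was 156 in replicate 1 and 175 in replicate 2, over the 4898 genes with a candidate in both. lin-9 had 155 in replicate 1 and 176 in replicate 2, a distance of 0.017. It was followed by cnnm-2 and R04E5.9, each with 168 and 184 and a distance of 0.12. Both are on chromosome X and also had the same pooled signal, 347, so they may be 1 region counted for both genes. With 2 samples this likeness is one of level alone.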

How the data were processed

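The data are ChIP-seq region lists of LET-607-GFP from 2 biological replicates of young adult worms. Per the deposited text files, candidate regions were called on ce11 from each replicate alignment, and from both together, against a control alignment, and the authors derived the thresholded list from these by irreproducible discovery rate. No source used here names the aligner, the peak caller or the threshold. The values are the deposited signal of column 7, a score of the caller with no stated formula. The files give no read counts, so depth and its limits on precision are unknown.

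Genes and starts came from Ensembl release 115 and sequences from the RefSeq FASTA of the same assembly; all 7 COPI genes matched by name and their first codons read ATG. The strongest summit in the promoter window gave a gene its value in each list. Counts are read against shares over all protein-coding genes, and no test was made, as there is 1 group. Motifs were searched on both strands from 50 bp before to 50 bp after a summit. The assignment was tested on simulated summits inside the window and downstream of it, but on none beyond its upstream edge. Python 3.11.15 and pandas 2.3.3 were used. The COPI genes, the 5 other gene lists and the motifs were chosen with earlier results of these data known. Genes were named if they were COPI genes, shared a COPI summit, were among the 4 strongest bound genes of a list, or were the 3 closest in level; neighbours of COPI genes (exo-1, pdfr-1, Y25C1A.8 and F38E11.25) and arf-1 fall outside this rule and were named after their values were seen. Sequences on chromosome I are not printed.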

Additional observations from a re-analysis of the deposited data

How the results depend on the processing

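The same 4 COPI genes were bound when each summit counted for the nearest start alone (beside 3.83% of protein-coding genes), when any overlap of region and window counted (5.40%), with the 744 strongest thresholded regions (2.80%) and with either replicate left out (4 and 4). The cut at 744 could not drop any of the 4 genes, since their pooled ranks run from 117 to 510. The narrow window gave 3 and the wide window 5. The median pooled signal of the bound genes was then 372 in both, against 330.3 otherwise. With a replicate left out that median was still taken from the pooled list. Of 26 alternative signals of single COPI genes, 25 were identical or, for cope-1 with the wide window, 43.0 in place of 41.6. Most rules returned the same strongest region, so these values do not measure how far a signal varies. With the wide window copb-1 had 877 in place of 72.0, since that window takes in its upstream region. The narrow window left copb-1 and copd-1 without a pooled candidate, so neither has a value there. No paired analysis was possible because both replicates belong to 1 group. With 7 genes, 2 replicates and no read counts, these data describe levels and cannot show that a COPI gene without a thresholded region is unbound. The names arf-1.1, arf-1.2, tmed-8 and rint-1 had no match in the annotation.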

Other observations

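The annotation holds an ADP-ribosylation factor gene under the symbol arf-1, which was looked up after the listed ARF names had no match and whose values were seen before it was named. Its strongest promoter-window region was thresholded, with a signal of 195 and rank 491 in the pooled list, 84.1 in replicate 1 and 126 in replicate 2. That is close to copg-1 in the pooled list (190.1), with the replicates in the opposite order.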
